A study of Mus musculus with 3 samples.

Results

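The peaks that Twist1 ChIP-seq placed at and around 9 genes with known roles in heart valve development were described. The genes were Tbx20, Cdh11, Sema3c, Rab39b, Gadd45a, Postn, Col2a1, Mmp2 and Mmp13. The study cites earlier work for Tbx20, Cdh11, Sema3c, Rab39b and Gadd45a as direct Twist1 targets in the cushions. For Postn it cites a change of expression when Twist1 is altered. Col2a1, Mmp2 and Mmp13 were grouped with them here and are not named in its text. A peak was assigned to one of these genes when its row in a peak list named the gene on either side at a deposited distance of 0 to 50 Kb. That rule gave 42 peaks of the 67468 in the 3 lists, and it covered 8 of the 9 genes. The lists name 14619 genes in all.

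Twist1 was immunoprecipitated from 3 samples, each pooled and sequenced once. The ECC sample was endocardial cushion tissue of the atrioventricular canal from wild-type FVB/N embryos at E12.5, the precursor of the heart valves. The limb bud sample was forelimb bud tissue from wild-type FVB/N embryos at E10.5. The PNST sample was a cultured mouse peripheral nerve sheath tumor cell line, which is 1 line grown in dishes, and the labels give it no embryonic stage. Both embryonic tissues were pools of whole dissected tissue from several litters, so cell types within them cannot be told apart. All 3 samples were treated with the same Twist1 antibody, and none had a replicate. A difference between tissues therefore could not be set against the spread between samples, and no test was made between tissues. Peak lists hold no expression values, so the tissue labels were not checked against marker genes.

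Twist1 belongs to the basic helix-loop-helix family and recognises E-boxes, sites of the form CANNTG, as a homodimer or with a partner of the same family. In the endocardial cushions it is active in mesenchymal cells, which migrate, divide and lay down the matrix that later becomes the valve leaflets. Of the 9 genes, Tbx20, Cdh11 and Sema3c are tied to migration, Rab39b and Gadd45a to proliferation, and Postn, Col2a1, Mmp2 and Mmp13 to the matrix and its turnover.

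The sequences that carried the main patterns are given first, from the forward strand of mm9 (NCBIM37). Capitals mark each E-box, and CANNTG read on the opposite strand is again CANNTG, so both strands were searched at once. The pair near Mmp13 is shown because it was the only place where a peak of 1 tissue overlapped a peak of another within 50 Kb of these genes. Its ECC peak lay at chr9:7300882-7301109 and its limb bud peak at chr9:7300861-7300995, both between Mmp13 and Mmp12, and neither held an E-box.
Mmp13 ECC peak: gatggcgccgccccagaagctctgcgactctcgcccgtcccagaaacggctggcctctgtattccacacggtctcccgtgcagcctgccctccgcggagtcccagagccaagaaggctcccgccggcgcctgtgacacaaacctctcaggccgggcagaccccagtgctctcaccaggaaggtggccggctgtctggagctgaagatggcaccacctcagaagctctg
Mmp13 limb bud peak: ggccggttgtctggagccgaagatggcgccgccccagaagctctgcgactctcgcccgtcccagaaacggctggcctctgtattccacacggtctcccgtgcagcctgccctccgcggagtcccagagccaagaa

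The following 4 peaks are shown because they held an E-box in ECCs, had a score past 100 or were called in PNST cells. In ECCs, an E-box was found in the Sema3c peak in intron 11 at chr5:17188330-17188506 and in the peak upstream of Rab39b at chrX:72828397-72828648. The upstream Tbx20 peak of limb buds at chr9:24626606-24626772 had a MACS score of 108, and the Postn peak of PNST cells lay downstream of the gene at chr3:54197244-54197350.
Sema3c ECC peak: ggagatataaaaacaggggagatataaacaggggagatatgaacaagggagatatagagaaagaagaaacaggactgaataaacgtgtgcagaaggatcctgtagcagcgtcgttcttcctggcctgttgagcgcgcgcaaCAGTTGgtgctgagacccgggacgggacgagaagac
Rab39b ECC peak: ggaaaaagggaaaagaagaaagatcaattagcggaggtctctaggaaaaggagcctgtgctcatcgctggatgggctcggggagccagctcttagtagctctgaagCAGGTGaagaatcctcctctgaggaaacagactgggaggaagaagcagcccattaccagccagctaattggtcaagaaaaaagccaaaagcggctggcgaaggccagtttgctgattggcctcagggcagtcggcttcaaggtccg
Tbx20 limb bud peak: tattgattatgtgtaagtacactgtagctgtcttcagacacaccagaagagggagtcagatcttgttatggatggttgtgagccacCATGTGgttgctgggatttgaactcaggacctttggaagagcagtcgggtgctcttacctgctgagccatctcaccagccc
Postn PNST peak: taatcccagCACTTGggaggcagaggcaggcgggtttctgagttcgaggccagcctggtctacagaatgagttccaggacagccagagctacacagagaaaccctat

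Another set is shown because limb bud peaks of 3 different genes shared parts of their sequence. They lay upstream of Mmp2 at chr8:95337075-95337285, in intron 9 of Sema3c at chr5:17182759-17182968 and upstream of Rab39b at chrX:72865146-72865286. The Mmp2 peak and the Sema3c peak shared an exact run of 45 bp on opposite strands. The Rab39b peak shared an exact run of 28 bp with each of them.
Mmp2 limb bud peak: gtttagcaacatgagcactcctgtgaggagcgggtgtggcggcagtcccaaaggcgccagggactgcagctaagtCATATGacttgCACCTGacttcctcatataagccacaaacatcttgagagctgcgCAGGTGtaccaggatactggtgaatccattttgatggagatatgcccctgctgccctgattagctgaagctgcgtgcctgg
Sema3c limb bud peak: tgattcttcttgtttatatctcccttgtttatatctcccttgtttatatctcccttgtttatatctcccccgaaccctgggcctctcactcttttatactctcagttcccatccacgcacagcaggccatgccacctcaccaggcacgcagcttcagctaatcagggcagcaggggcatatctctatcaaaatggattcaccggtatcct
Rab39b limb bud peak: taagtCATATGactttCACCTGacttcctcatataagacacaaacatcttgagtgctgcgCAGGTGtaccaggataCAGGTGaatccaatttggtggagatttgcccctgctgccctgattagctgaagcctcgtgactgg

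Finally, 2 limb bud peaks in the Cdh11 gene are shown because, unlike the peaks above, most of their sequence occurs once in the genome. They lay in intron 6 at chr8:105188919-105189048 and in intron 2 at chr8:105206135-105206298.
Cdh11 intron 6 limb bud peak: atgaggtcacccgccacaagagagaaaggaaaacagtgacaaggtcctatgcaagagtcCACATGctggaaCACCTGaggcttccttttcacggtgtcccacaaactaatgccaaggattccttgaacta
Cdh11 intron 2 limb bud peak: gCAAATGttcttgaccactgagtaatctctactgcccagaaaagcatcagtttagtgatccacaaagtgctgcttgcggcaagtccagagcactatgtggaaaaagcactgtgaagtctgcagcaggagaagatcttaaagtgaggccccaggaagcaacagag

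Peaks within 50 Kb were called for 8 of the 9 genes in limb buds and for 3 each in ECCs and PNST cells. The same share over all genes named in the lists was 87.5% in limb buds, 36.3% in ECCs and 23.6% in PNST cells, and for the 8 of the 9 genes that any list named, Col2a1 left out, the shares were 100%, 37.5% and 37.5%. The exact 95% Clopper-Pearson intervals for these 8 genes ran from 63.1% to 100% in limb buds and from 8.52% to 75.5% in both other samples, and with 8 genes they are wide. In ECCs the genes were Sema3c, Rab39b and Mmp13. Every gene named had a limb bud peak, and the genes in PNST cells were Cdh11, Rab39b and Postn. Rab39b was the only gene of the 9 with a peak in all 3 tissues, as 1538 of the 14619 genes had (89.5% lacked one in at least 1 tissue). Cdh11, Sema3c, Postn and Mmp13 had peaks in 2 tissues, and Tbx20, Gadd45a and Mmp2 in limb buds alone. Col2a1 is treated by position below, since no row named it.

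**Figure D1:**
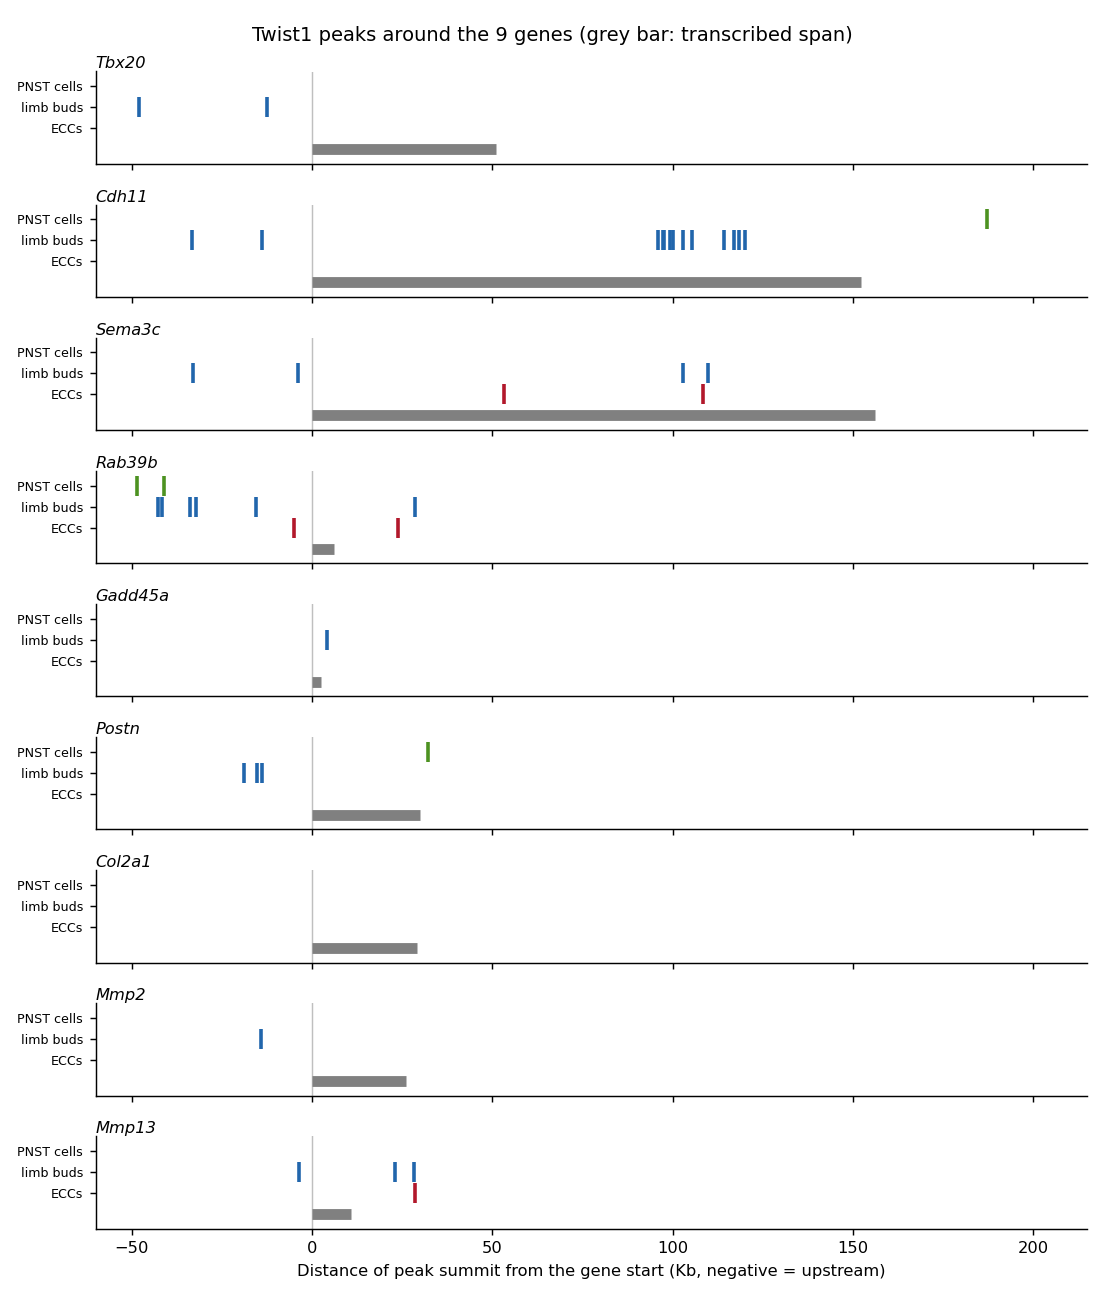
Position of each Twist1 peak summit within 50 Kb of the 9 genes, in Kb from the gene start along the direction of transcription (x axis), with 1 track for each tissue and a grey bar for the transcribed span of the gene. The 11 limb bud peaks inside Cdh11 stand together between 95.8 and 120 Kb from its start, and a peak of ECCs lies on a limb bud peak only past the 3’ end of Mmp13.

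The samples differed in depth. After duplicate tags were removed, the ECC library kept 3149934 tags, the limb bud library 14893391 and the PNST library 11823220, and the smallest number of tags in any called peak was 5, 8 and 7. The header of the limb bud list gives a larger read total than the text of the study does, and the reason is not given in the sources used here. The limb bud counts and shares hold for the list as deposited, not for the smaller set of limb bud peaks that the study reports. Normalised tags below are tags per 1000000 filtered tags. The minimums correspond to 1.59, 0.537 and 0.592 normalised tags, so a weak peak had to be relatively stronger to be called in ECCs. Intervals on tag counts below are exact Poisson intervals at 95% and cover counting error only.

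Tbx20 encodes a T-box transcription factor of the cushion mesenchyme and the myocardium. Peaks within 50 Kb were called in limb buds only, at 12.6 and 47.9 Kb upstream of the gene start, and their rows also named Herpud2 on the other side. The nearer peak held 11 tags and the farther 14, and both had a fold enrichment of 20.9 over the local background. The farther peak had a p-value of 1.64e-11 from MACS, and it carried 1 E-box, CATGTG, 27 bp from its summit. The nearer peak carried none. The lists of ECCs named Tbx20 in no row, and the nearest row of PNST cells lay 89.8 Kb away with 7 tags.

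Cdh11 encodes cadherin-11, an adhesion molecule of mesenchymal cells. It had 13 peaks in limb buds, no peak in ECCs within 50 Kb and 1 in PNST cells. At least 13 limb bud peaks were assigned to 89 of the 14619 genes (0.609%), and the median for genes with a peak was 2. The rule also counts peaks inside a gene, and Cdh11 spans 152117 bp. This share was not adjusted for gene length. The 13 peaks held 8 to 12 tags each, with a fold enrichment of 8.27 to 23.5. Of these, 11 lay inside the gene (chr8:105156895-105309011, reverse strand) within introns 2, 4 and 6, exon 3 and coding exon 6, in a stretch of 24.4 Kb. The other 2 lay 13.8 and 33.3 Kb upstream of the start. The peak of PNST cells was at chr8:105121837-105121987, 35.1 Kb from the gene by the deposited distance and past its 3’ end, and held 7 tags and the E-boxes CAGGTG and CACATG. The nearest row naming Cdh11 in ECCs was 108 Kb upstream with 5 tags.

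Parts of the stretch that held the 11 Cdh11 peaks have near-identical copies elsewhere in mm9. Words of 32 bases from these peaks were found again in 5 blocks of chromosome 8, at 19679845-19697257, 19788297-19801104, 19864080-19889454, 19991372-20016731 and 72079105-72105445, and also on another chromosome and on unplaced contigs. Limb bud peaks were called in each of those 5 blocks, with 5, 3, 8, 6 and 6 peaks. ECC peaks numbered 1 in each of 3 blocks, and 1 peak of PNST cells lay in 1 block. The median number of genomic copies of a 32-base word was 1 to 8 in the 11 peaks. Reads from Cdh11 and from these copies could be exchanged by the mapping, so the number of peaks and tags for Cdh11 is uncertain. In 4 of the 11 peaks, including both sequences printed above, fewer than 50% of the words occurred more than once, and these 4 held 8, 10, 12 and 11 tags.

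Sema3c encodes a secreted semaphorin that guides migrating cells of the outflow tract. It had 2 peaks in ECCs, 4 in limb buds and none within 50 Kb in PNST cells, whose list named it in no row. The ECC peaks lay in intron 2 with 5 tags and a fold enrichment of 26.5, and in intron 11 with 7 tags and a fold enrichment of 14.7. The limb bud peaks lay 33.1 and 3.76 Kb upstream with 8 tags each, in intron 9 with 17 tags, and in intron 11 with 10 tags. The intron 9 peak had the lowest p-value of all 42 peaks, 3.51e-13. The intron 11 peaks of the 2 tissues did not overlap and stood 1449 bp apart. The ECC peak there carried the E-box CAGTTG, 83 bp from its summit, and the limb bud peak carried none.

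Rab39b encodes a small GTPase of the Rab family, which acts in vesicle transport. It had 6 limb bud peaks and 2 peaks each in ECCs and PNST cells. In ECCs the peaks held 7 tags at 4.96 Kb upstream of the start and 5 tags past the 3’ end, 23955 bp downstream of the start, the latter with the highest fold enrichment of the 42 peaks, 37.6. In limb buds the peaks held 8, 8, 9, 11, 11 and 18 tags, 5 of them 15.5 to 42.7 Kb upstream. In PNST cells the peaks held 8 and 9 tags at 41.1 and 48.7 Kb upstream. The rows of all upstream peaks also named 4933407K13Rik as the next gene. None of the 10 peaks overlapped a peak of another tissue. The closest pair was a PNST peak and a limb bud peak separated by 349 bp, at 41.1 and 41.7 Kb upstream. That limb bud peak, printed above, carried 4 E-boxes, and the PNST peak carried none. Of all named genes, 6.42% had at least 6 limb bud peaks, 9.76% at least 2 ECC peaks and 5.00% at least 2 PNST peaks.

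Gadd45a encodes a growth arrest protein induced by DNA damage. It had 1 peak, in limb buds, at chr6:66983217-66983386 with 11 tags and a fold enrichment of 18.3. The summit lay 4138 bp downstream of the start and past the 3’ end of the gene, which spans 2362 bp, and it held no E-box. The lists of ECCs and PNST cells named Gadd45a in no row.

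**Figure D2:**
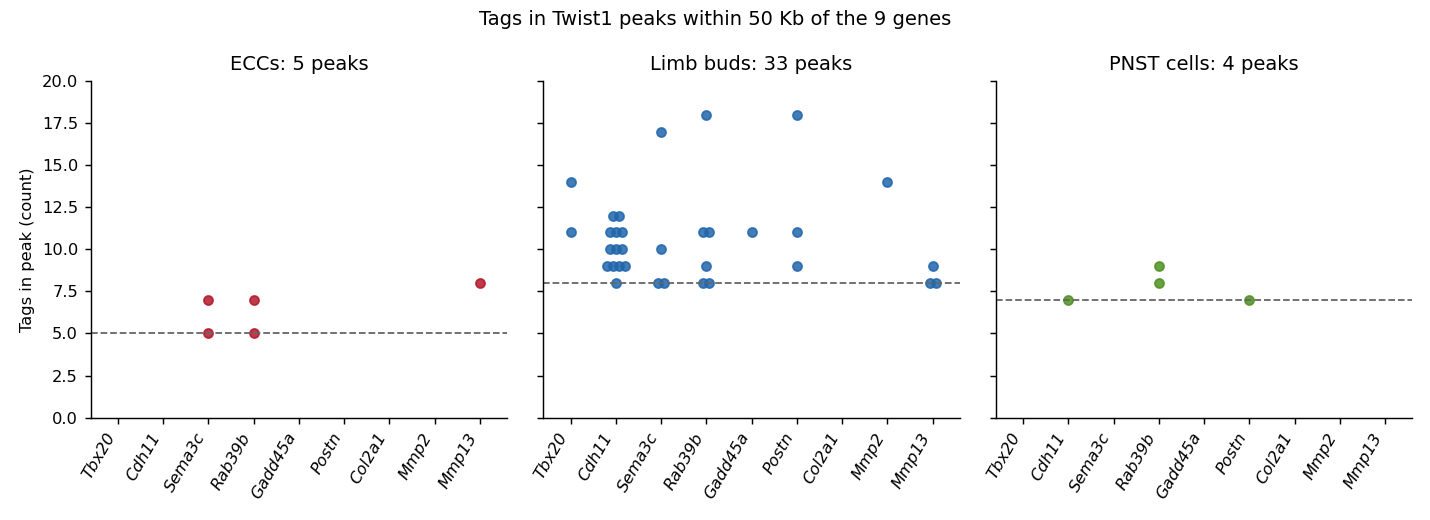
Number of tags in each Twist1 peak (y axis) within 50 Kb of the 9 genes (x axis), with 1 point for each peak and 1 panel for each tissue, and a dashed line at the smallest number of tags in any called peak of that list (5, 8 and 7). All 42 peaks held 5 to 18 tags, and many lay on or next to the line.

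Postn encodes periostin, a matrix protein of the maturing valve. Limb buds had 3 peaks upstream, at 18.9, 15.3 and 13.8 Kb, with 9, 11 and 18 tags and no E-box. The 2 nearer peaks shared an exact run of 115 bp. PNST cells had 1 peak of 7 tags downstream of the gene, 32.2 Kb from the start, with the E-box CACTTG. No peak of ECCs lay within 50 Kb. Beyond that distance, the ECC peak at chr3:54264997-54265188, 100 Kb downstream of the start, lay inside a limb bud peak at chr3:54264962-54265267. It held 6 tags against 27 in limb buds, which is 1.90 and 1.81 normalised tags, with a ratio of 1.05 (0.355 to 2.60). The limb bud peak had a score of 196, higher than any of the 42 peaks within 50 Kb. The ECC peak is shown because it consists of a short run of bases repeated over and over.
Postn ECC peak 100 Kb downstream: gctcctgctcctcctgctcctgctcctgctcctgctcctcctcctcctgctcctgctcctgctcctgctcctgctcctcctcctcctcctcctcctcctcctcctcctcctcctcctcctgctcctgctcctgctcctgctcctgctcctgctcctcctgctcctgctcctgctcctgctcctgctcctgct

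Col2a1 encodes the chain of type II collagen, the collagen of cartilage and of parts of the valve. None of the lists named it in any row. Whether it was in the gene table behind the deposited distances is not given in the sources used here, so the missing rows do not show a lack of peaks. By position, the nearest peaks lay past its 3’ end. In limb buds a peak of 11 tags at chr15:97797839-97798010 was 8023 bp past that end and 37.3 Kb from the start, inside Tmem106c. In ECCs a peak of 7 tags at chr15:97789263-97789432 was 16.6 Kb past the end and 45.8 Kb from the start. They stood 8407 bp apart, and neither held an E-box. In PNST cells the nearest peak was 193 Kb upstream of the gene start. In each of these limb bud, ECC and PNST peaks, 100% of the 32-base words occurred more than once in the genome.

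Mmp2 encodes a gelatinase that degrades matrix. It had 1 peak within 50 Kb, in limb buds, 14.1 Kb upstream, with 14 tags, a fold enrichment of 20.9 and a p-value of 3.95e-10. Its 3 E-boxes are marked in the sequence above, and the nearest stood 12 bp from the summit. Farther away, 111 Kb upstream, an ECC peak at chr8:95239794-95240126 and a limb bud peak at chr8:95239969-95240181 overlapped by 158 bp, and both held the E-box CAGATG. They held 13 and 15 tags, or 4.13 and 1.01 normalised tags, with a ratio of 4.10 (1.79 to 9.23). Another limb bud peak, of 8 tags and with the E-box CAGTTG, stood 145 bp from the ECC peak and is not counted in this ratio. In each of these peaks 111 Kb upstream, 100% of the 32-base words occurred more than once in the genome. The list of PNST cells named Mmp2 in no row.

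Mmp13 encodes a collagenase. ECCs had 1 peak and limb buds 3, and the list of PNST cells named it in no row. The limb bud peak nearest to the start lay 3502 bp upstream with 9 tags and 2 E-boxes, CAGTTG and CAACTG. Of the 42 peaks it was the closest to a gene start, and none lay within 1 Kb. The other 2 limb bud peaks held 8 tags each, 23.1 and 28.4 Kb downstream of the start. The farther one overlapped the ECC peak by 114 bp, which is 50% of the ECC peak and 84.4% of the limb bud peak. Both held 8 tags. This gave 2.54 normalised tags in ECCs (1.10 to 5.00) and 0.537 in limb buds (0.232 to 1.06), a ratio of 4.73 (1.55 to 14.5). The 2 regions were called separately, with lengths of 228 and 135 bp. The smallest called peaks of the 2 lists already differ by a ratio of 2.96, and how far the ratio follows from depth and calling was not tested. The regions behind the ratios for Postn (192 and 306 bp) and Mmp2 (333 and 213 bp) were also called separately, and the ratio of 2.96 applies to those pairs too. The intervals cover counting error in 1 sample for each tissue, and the ratio was not tested against variation between samples. The fold enrichment at this place was 20.5 in ECCs and 11.2 in limb buds.

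Across the 42 peaks, the summit lay in an intron in 13, in an exon in 2, upstream of the gene in 19 and downstream of it in 8. Only 4 lay within 5 Kb of the start, and 26 within 50 Kb of it, since the deposited distance runs to the nearest annotated segment of a gene and not to its start. Counted by summits within 50 Kb of the annotated gene start, all 9 genes had a limb bud peak, 3 had one in ECCs (Rab39b, Col2a1 and Mmp13) and 2 in PNST cells (Rab39b and Postn), where the shares over all protein-coding genes were 77.3%, 32.1% and 19.0%. Near the limit of 50 Kb, the farthest peaks kept were the PNST peak of Rab39b at a deposited distance of 48.8 Kb with 9 tags and the limb bud peak of Tbx20 at 48.3 Kb with 14 tags. The nearest beyond it were a PNST peak of Rab39b at 51.5 Kb with 7 tags and a limb bud peak of Rab39b at 53.8 Kb with 8 tags. In limb buds the 33 peaks held 8 to 18 tags, with a median of 10, equal to the median of the whole list. In ECCs the 5 peaks held 5 to 8 tags with a median of 7, against 6 in the list, and in PNST cells the 4 peaks held 7 to 9 with a median of 7.5, against 8. Only the Sema3c intron 9 peak and the farther Tbx20 peak, both of limb buds, reached a score of 100, which stands for a p-value of 1e-10. That is 2 of 33 peaks, where 9.01% of the limb bud list reached it. No peak of these genes reached it in ECCs or PNST cells, where 10.4% and 8.28% of the lists did.

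Between tissues, 1 of the 5 ECC peaks overlapped a limb bud peak by at least 5% of its length, where 33.1% of all ECC peaks did. In the other direction it was 1 of 33 limb bud peaks, where 7.61% of the list did. No ECC peak of these genes overlapped a peak of PNST cells (6.76% of the list did), and no limb bud peak did (2.61%). None of the 4 PNST peaks overlapped a peak of ECCs or of limb buds, against 10.3% and 17.2% of the PNST list. With 4 or 5 peaks these shares are wide, and the exact interval for 0 of 4 peaks reaches up to 60.2%.

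To set the absences against depth, the tags of each peak were scaled to the depth of the other samples. Scaled to the depth of ECCs, the 33 limb bud peaks held 1.69 to 3.81 tags, so none reached the 5 tags of the weakest called ECC peak (4.99% of all limb bud peaks did). The 4 PNST peaks scaled to 1.86 to 2.40 tags there and also fell short (7.63% of all PNST peaks did not). Since few peaks of either whole list reached that minimum, this outcome was nearly fixed by depth, and no conclusion is drawn from it. The limb bud peak that overlapped the ECC peak near Mmp13 scaled to 1.69 tags, while that ECC peak held 8. Whether the absence of ECC peaks near Tbx20, Cdh11, Gadd45a, Postn and Mmp2 reflects depth was not tested, so it does not show a lack of binding. Scaled the other way, the 5 ECC peaks came to 23.6 to 37.8 tags at the depth of limb buds, above the minimum of 8. Of the 5, 1 had a limb bud peak at its place. At the depth of PNST cells the ECC peaks came to 18.8 to 30 tags, above the minimum of 7, and none had a PNST peak. Both scalings could not come out otherwise, since 100% of all ECC peaks passed each minimum, so no conclusion is drawn from them. Of the 33 limb bud peaks, 26 reached 7 tags at the depth of PNST cells, where 69.9% of the limb bud list did. The 4 PNST peaks scaled to 8.82 to 11.3 tags at the depth of limb buds, above the minimum of 8, as 100% of all PNST peaks did. The minimum is not a threshold of the caller, which judges each place against its local background.

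**Figure D3:**
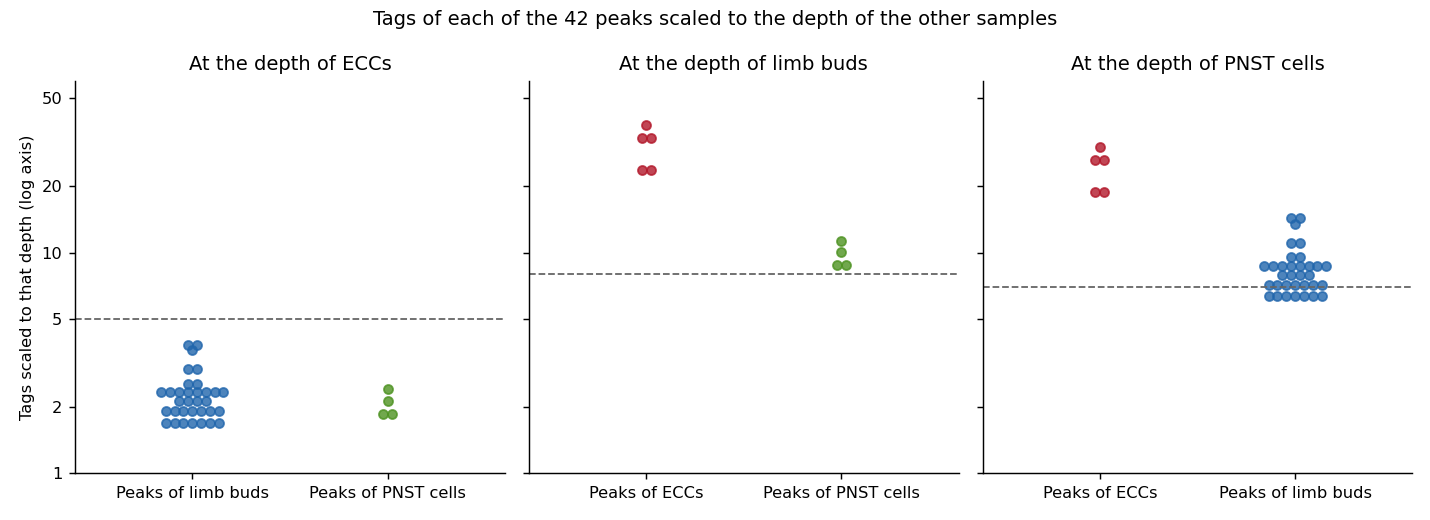
Tags of the 42 peaks scaled to the depth of each other sample (y axis, log scale), with 1 panel for the depth scaled to, 1 column for the tissue in which the peak was called and a dashed line at the smallest number of tags in a called peak of the panel’s list. All limb bud and PNST peaks lie below the line at the depth of ECCs, and all ECC peaks lie above it at the other 2 depths. The latter was fixed by depth, since 100% of the whole ECC list lies above the line there. The former was nearly fixed too, since only 4.99% of the limb bud list and 7.63% of the PNST list reach the line at the depth of ECCs.

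Of the limb bud peaks, 18 of 33 held an E-box, as did 2 of 5 ECC peaks and 3 of 4 PNST peaks. The limb bud share for these genes was 54.5% (36.4% to 71.9%), where the whole lists had 56% for limb buds, 54.7% for ECCs and 54% for PNST cells. These 23 peaks held 38 E-boxes, of which 10 were CACCTG or its reverse complement CAGGTG. An E-box within 50 bp of the summit was found in 14 limb bud peaks, 1 ECC peak and 3 PNST peaks, where the lists had 38.5%, 38.1% and 39.2%. The matches are letters in a window and do not show a bound site.

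Most of the peaks lay in sequence that occurs many times in the genome. In all 5 ECC peaks, all 4 PNST peaks and 29 of the 33 limb bud peaks, more than 50% of the 32-base words occurred more than once. Over every 10th peak of each list, this was also true of 95.7% in ECCs, 96.7% in PNST cells and 98.7% in limb buds, but of 14.4% of 1968 windows of 150 bp spaced evenly over the chromosomes. The 4 peaks that were mostly single-copy were the Cdh11 peaks named above. Outside the Cdh11 gene, the median number of copies of a word was 31 to 12907. Of the 861 pairs among the 42 peaks, 7 pairs at different places shared an exact run of at least 32 bp, and 5 of those joined different genes. The longest of these 5, 54 bp, joined the limb bud peaks of Gadd45a and Tbx20, and the next, 45 bp, joined those of Mmp2 and Sema3c and also the upstream Postn peak of limb buds with the intron 2 Sema3c peak of ECCs. A read from such a sequence cannot always be placed at 1 position, and whether the tags of these peaks came from the places listed was not tested.

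**Figure D4:**
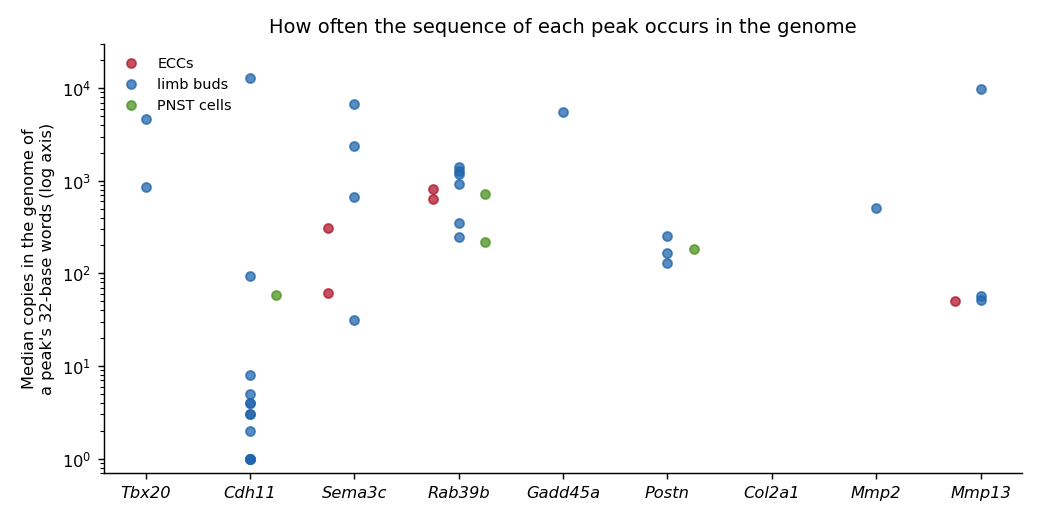
Median number of times that the 32-base words of each peak occur in mm9 (y axis, log scale) for the 9 genes (x axis), with 1 point for each peak, coloured by tissue. Only limb bud peaks of Cdh11 lie below 10 copies, and all other peaks lie at 31 copies or more.

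Other genes of valve mesenchyme were looked up in the same way. Of 30 such genes, 28 were named in the lists, and 20 had a peak within 50 Kb in limb buds, 7 in ECCs and 9 in PNST cells, which is 71.4%, 25% and 32.1% of those named, against 87.5%, 36.3% and 23.6% of all genes. The interval in limb buds, 51.3% to 86.8%, ended just under the 87.5% of all genes. It is 1 of several intervals looked at, and the difference was not tested. Snai1, Tbx3, Tgfb2, Col3a1 and Eln had peaks in all 3 tissues, 17.9% of those named, where 1538 of all 14619 genes had. Eln, which encodes elastin, had 4 limb bud, 2 ECC and 1 PNST peak. The ECC peak of Col3a1, a fibrillar collagen of the valve, was 338 bp from the gene with 7 tags. Of the list, Tgfb2, a growth factor that drives cushion mesenchyme formation, had the PNST peak with the most tags, 13. The gene of Twist1 itself had 4 peaks in limb buds and none in ECCs or PNST cells.

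Of 24 relatives of the 9 genes, 21 were named in the lists, and 19 had a limb bud peak, 10 an ECC peak and 4 a PNST peak. That is 90.5%, 47.6% and 19.0% of those named, beside 87.5%, 36.3% and 23.6% of all genes. The lists are not fully separate, since the only ECC and limb bud peaks of Mmp12 are the overlapping pair also counted for Mmp13. Cdh13, Sema3a, Sema3e and Mmp16 had peaks in all 3 tissues, 4 of 21 beside 1538 of 14619. Cdh13, another cadherin, had 9 limb bud peaks and 3 each in ECCs and PNST cells, while Cdh11 had 13, 0 and 1. The most tags in ECCs were 11, in peaks of Cdh13 and Mmp3, and the most in limb buds were 33, in a peak of Tbx5, a T-box factor of the forelimb and heart. Each of these counts was above the highest for the 9 genes in the same tissue, which was 8 in ECCs and 18 in limb buds.

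**Figure D5:**
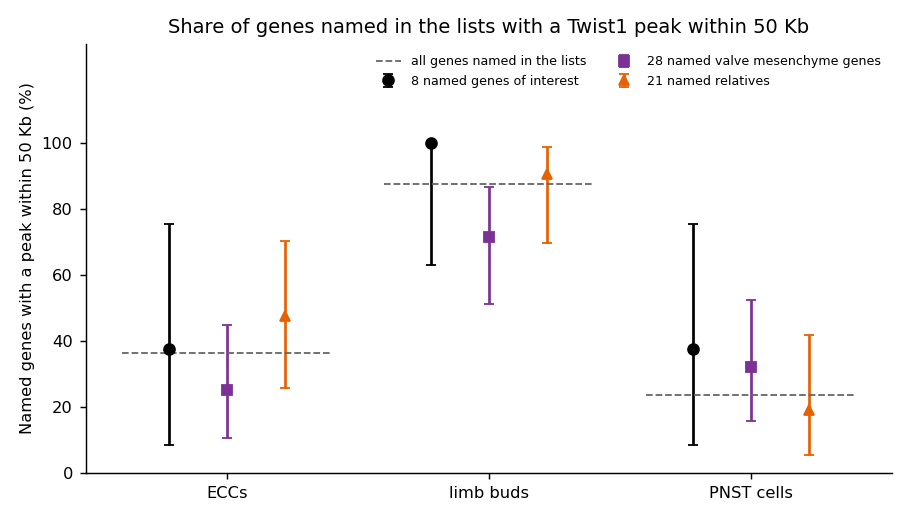
Share of the genes named in the lists that have a Twist1 peak within 50 Kb (y axis, percent) in each tissue (x axis), for 8 of the 9 genes, 28 valve mesenchyme genes and 21 relatives, with exact 95% Clopper-Pearson intervals and a dashed line for all genes named in the lists (87.5% in limb buds, 36.3% in ECCs, 23.6% in PNST cells). The interval of the valve mesenchyme genes in limb buds ends just below the line, at 86.8%, and the other 8 intervals hold it. No difference was tested.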

How the data were processed

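ChIP-seq was performed by the authors on 1 pooled sample each of ECCs, limb buds and PNST cells. Single 50 bp reads were mapped to mm9 (Eland v2, Bowtie), and each sample had its peaks called by MACS 1.4.2 (band width 300, p-value limit 1e-05). According to the methods the control was genomic DNA of FVB/N mice, whereas no control file is named in the file headers. The deposited tag counts are tags in a peak after at most 1 was kept per position, not scaled for depth. The deposited score is 10 times the −log10 of the MACS p-value, and the deposited fold enrichment is the summit's ratio to the local background. The deposited distances in bp run from the peak start to the lower-coordinate end of the nearest annotated exon, coding or UTR segment of the named gene: this held within 3 bp for 52 of 56 sides in GENCODE vM1.

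The 9 genes and both comparison lists were chosen with earlier results of these data known. A peak was shared when a peak of another tissue covered at least 5% of its length. Sequences and gene spans came from NCBIM37 and GENCODE vM1, whose chromosome ends no peak passed. Repeats were measured as the share of 32-base words of a peak found more than once in the genome on either strand. The overlap code was checked on simulated peaks. Tags were divided by the filtered total and multiplied by 1000000, with exact Poisson intervals, ratios of tags carry exact conditional intervals, and shares carry Clopper-Pearson intervals at 95%. With 1 sample per tissue there was no test between tissues. The text names the 9 genes, list genes with peaks in all 3 tissues, and the list gene with the most tags in each. Twist1 was added after its values were seen. Python 3.11.15, numpy 2.4.6, pandas 2.3.3, scipy 1.17.1, pysam 0.24.0 and matplotlib 3.10.9 were used. Reads, the control library and expression arrays were not used here.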

Additional observations from a re-analysis of the deposited data

How the results depend on the processing

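No paired analysis was possible because each tissue had 1 sample. Of 66 recomputed values, 29 kept within 1.5 times the reported count and 37 did not; each is a count, with no test. At a p-value cut-off of 1e-10, limb buds had 2 of the 9 genes with 2 peaks, and ECCs and PNST cells 0 genes with 0 peaks, while valve mesenchyme genes with a peak numbered 1, 2 and 0 (ECCs, limb buds, PNST cells) and relatives 1, 5 and 0. With a fold enrichment of at least 20, limb buds kept 4 genes with 5 peaks, PNST cells 0 genes with 0 peaks, and ECCs 3 peaks. With a limit of 10 Kb, limb buds had 4 genes with 16 peaks, PNST cells 1 gene with 1 peak, and ECCs 2 peaks; valve mesenchyme genes numbered 4, 9 and 3, and relatives 4 in ECCs and 11 in limb buds. These settings use fewer peaks by construction. Counted from the gene start in GENCODE vM1, limb buds had 21 peaks, and Col2a1 counted in ECCs and limb buds; 32.1%, 77.3% and 19.0% of protein-coding genes had a summit within 50 Kb of their start. Peaks within 1 Kb of another tissue's peak numbered 2 in limb buds and 1 in PNST cells. An E-box within 50 bp of the summit was in 1 ECC peak. Keeping only mostly single-copy peaks, an alternative chosen after seeing the data, left 0 genes and 0 peaks in ECCs and PNST cells, and 1 gene, Cdh11, with 4 peaks in limb buds. Whether an absence from the ECC list reflects its lower depth was not tested.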
